A study of Arabidopsis thaliana with 12 samples.

Results

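The transcripts described here are those whose signal was lower after 30 min of chitooctaose in both genotypes of Arabidopsis thaliana seedlings, 83 probe sets of the 22746 on the array. A probe set was taken when log2 of its deposited intensity, with values below 16 set to 16, was lower by at least 0.7 in the mean of 3 chitooctaose arrays than in the mean of 3 water arrays. This had to hold in wild type and again in the mutant, and the mean intensity over the 6 water arrays had to be at least 40. AT5G61590 and AT2G44940 met these conditions and were left out by name. Of the 83 members, 36 were assigned to 1 gene in the array annotation used here, 1 to several genes and 46 to none; the last 47 are given by probe set identifier. The responses to chitooctaose chose the members, so these responses are described below without a test. Because every member is lower by construction, the description concerns which genes they are, at which level they stood and how evenly the genotypes and arrays showed the difference.

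Whole seedlings 14 days old were exposed for 30 min to 1 µM chitooctaose, a soluble fragment of chitin, or to the same amount of water. The groups were wild type in water, wild type in chitooctaose, the erf5/6 double mutant in water and the erf5/6 double mutant in chitooctaose, with 3 arrays each that the labels call biological replicates. All seedlings grew in liquid medium with glucose under constant light; the labels used here give neither the accession nor the mutant alleles. The genotype labels could not be checked, because no probe set carried the name ERF5 or ERF6 in the annotation used.

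Plants recognise chitin oligomers through receptor kinases with LysM domains and change transcription within minutes. Work on such early responses has mostly followed the induced defence genes, while genes of growth, cell differentiation and hormone signalling are commonly found among those repressed. The amount of an mRNA reflects both its synthesis and its decay, and a steady-state array does not separate them. ERF5 and ERF6, the genes mutated here, encode transcription factors of the ethylene response factor family.

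The labels give the tissue as whole seedlings. Of 7 listed green tissue markers 2 were tested, and of 7 listed root markers 1, and these transcripts were abundant. In water, the mean intensity over 6 arrays was 6352 for RCA, the rubisco activase gene, 5318 for the antenna protein gene LHCB4.1 and 4024 for the root gene PYK10, and none of the 3 was called in either response by limma, nor had any an unadjusted p under 0.05. The treatment was visible in all 7 defence genes set beside the falling ones, among them STZ, WRKY53 and PUB22, chosen with their earlier result known; their median changes were 3.36 in wild type and 3.43 in the mutant on the log2 scale. Array medians lay between 77.0 and 83.2, and 23.4% to 24.8% of an array's values were below 16. Earlier work on these data had found array 1 of water-treated wild type and array 2 of chitooctaose-treated wild type apart from the rest; a group of members in which these 2 arrays were the highest is described further on. In whole seedlings, less RNA per cell and fewer cells of a type cannot be told apart.

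Few transcripts were lower by this much. The rule's changes were met by 85 of the 14204 probe sets with a water mean of at least 40, or 0.598%, the 2 genes left out by name included. The mirror condition, higher by at least 0.7 in both genotypes, was met by 519, or 3.65%. Among members the median change was -0.96 in wild type (from -2.004 to -0.72) and -0.94 in the mutant (from -2.70 to -0.70). Over all 14204 probe sets at that level the medians were -0.12 and 0.00 on the deposited scale, so that, relative to these, the members' medians were -0.84 and -0.94. After quantile normalization the 2 background medians were -0.10 and -0.10, and the members' medians -0.95 and -1.03. In the median member 51.8% of the water intensity remained after chitooctaose in wild type and 52.2% in the mutant. A change of -1 or below was seen in 35 members in wild type, in 35 in the mutant and in 21 in both.

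**Figure D1:**
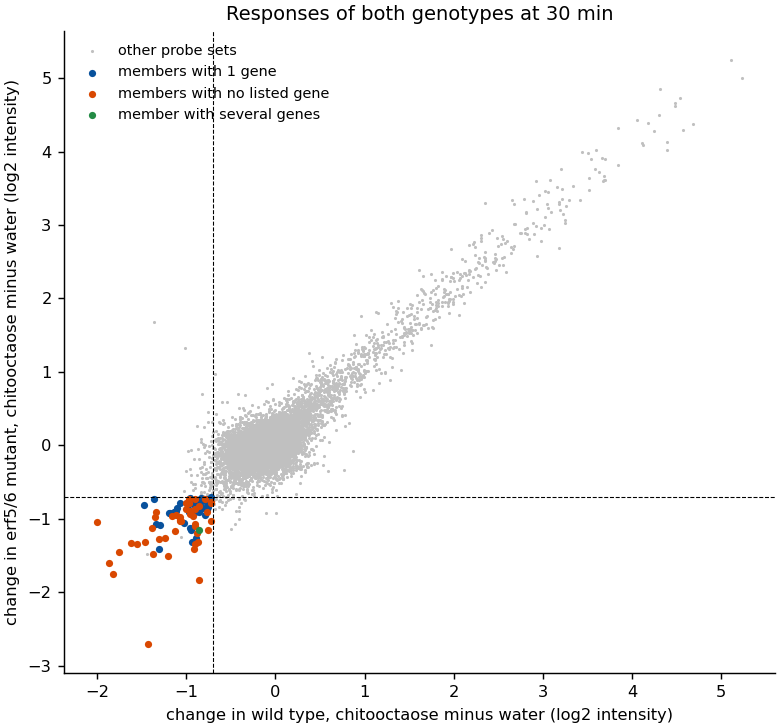
Change from water to chitooctaose on the log2 intensity scale in wild type (horizontal axis) and in the erf5/6 mutant (vertical axis) for the 14204 probe sets with a water mean of at least 40; dashed lines mark -0.7. The 83 members fill the lower left corner, which holds 0.598% of the points with the 2 genes left out by name, while the upper right arm of rising transcripts is longer and more populated.

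The boundary of the rule fell within a continuous range. ARR15 was just inside with -0.72 and -0.70 in wild type and mutant, AT1G04770 with -0.95 and -0.71, and probe set 256062_at with -0.72 and -0.77. Just outside were AT1G29195 with -0.81 and -0.69, probe set 261195_at with -0.69 and -0.80, and probe set 260209_at with -0.95 and -0.69. By level, AT2G36090 at a water mean of 40.03 was the dimmest member, and AT3G51400, at 39.8 with changes of -1.37 and -1.18, was left out.

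Most members were of low to moderate level. Their mean intensity in water had a median of 126 and ran from 40.03 to 1045, against a median of 183 for all probe sets at or above 40. Members with a water mean under 100 numbered 32, and only 7 reached 500, or 8.43%, against 19.9% of all probe sets at or above 40. The brightest was probe set 264014_at, with 1000, 1041 and 1052 in wild-type water and 652, 435 and 433 in wild-type chitooctaose. In the mutant it read 1158, 1080 and 939 in water and 484, 541 and 525 in chitooctaose. The brightest with a gene was AT4G28240, which belongs to a wound-responsive protein family. It read 943, 938 and 1027 in wild-type water against 504, 613 and 508 in chitooctaose, and 954, 993 and 1141 in mutant water against 552, 613 and 583. Every chitooctaose array of AT4G28240 was below every water array of its genotype, and the changes were -0.84 ± 0.10 and -0.82 ± 0.09 (SE from the arrays, n = 3 per group). Probe set 252972_at read 692, 700 and 609 in wild-type water and 293, 215 and 265 in chitooctaose, and in the mutant 804, 733 and 630 against 323, 301 and 369. The other 4 at or above 500 were 247696_at (mean in water 601), 256766_at (585), 247013_at (551) and 251443_at (519), of which the first 2 are given by array further on.

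In wild type, all 3 chitooctaose arrays were below all 3 water arrays in 73 of the 83 members, and in the mutant in 81. The same held for 22.3% of all probe sets at or above 40 in wild type and for 7.67% in the mutant. With limma, 71 members were called lower in wild type, where 4.08% of all 18680 tested probe sets were, and 74 in the mutant, where 2.66% were. Since the rule used these contrasts, nothing is read from the counts. All 36 members with a gene were separated from water in both genotypes, and 34 of them were called in both; AT4G25780 and AT4G35720 were not called in wild type.

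Among the named members were 3 transcription factor genes. GIS encodes a C2H2 zinc finger protein that promotes trichome formation on inflorescence organs in response to gibberellin. Its intensities were 58.9, 53.5 and 62.8 in wild-type water and 37.2, 27.4 and 41.9 in chitooctaose, and in the mutant 54.7, 41.9 and 48.1 against 26.6, 23.5 and 37.9. The groups did not overlap within a genotype, and the change was -0.74 in both. The AP2/ERF gene tny, also called TINY, read 81.8, 127 and 142 in wild-type water and 53.4, 78.8 and 67.4 in chitooctaose, with array 1 the lowest of the water arrays. In the mutant it was tighter, with 134, 143 and 139 in water and 72.4, 69.7 and 73.1 in chitooctaose, a change of -0.95 ± 0.04 (SE, n = 3 per group). AT1G29160, which encodes a Dof zinc finger protein, read 96.4, 92.5 and 71.4 in wild-type water against 45.2, 56.3 and 50.9, and its changes were -0.77 and -0.88.

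Other named members act in cell cycle and hormone signalling. SIM, or SIAMESE, encodes an inhibitor of cyclin-dependent kinases that stops mitosis and allows endoreduplication in trichomes. In wild type SIM went from 207, 261 and 261 to 124, 131 and 94.0. In the mutant it went from 318, 271 and 251 to 194, 107 and 205, with array 2 well below the other two after chitooctaose, so that its change there, -0.78 ± 0.32, was less certain than the -1.07 ± 0.19 of wild type (SE, n = 3 per group). WAG2, a protein kinase of the AGC family that phosphorylates PIN auxin carriers, went from 100, 113 and 102 to 51.4, 54.9 and 56.8 in wild type. In the mutant, WAG2 went from 101, 87.3 and 156 to 44.5, 48.5 and 58.2; the changes were -0.95 ± 0.07 and -1.15 ± 0.28. ARR15, a type-A response regulator that damps cytokinin signalling, read 63.5, 48.5 and 64.6 in wild-type water and 46.6, 28.6 and 33.1 in chitooctaose. The lowest water array of ARR15 and the highest chitooctaose array in wild type thus nearly met. In the mutant the groups stood farther apart, with 88.2, 76.6 and 68.1 in water and 46.8, 44.4 and 51.6 in chitooctaose.

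**Figure D2:**
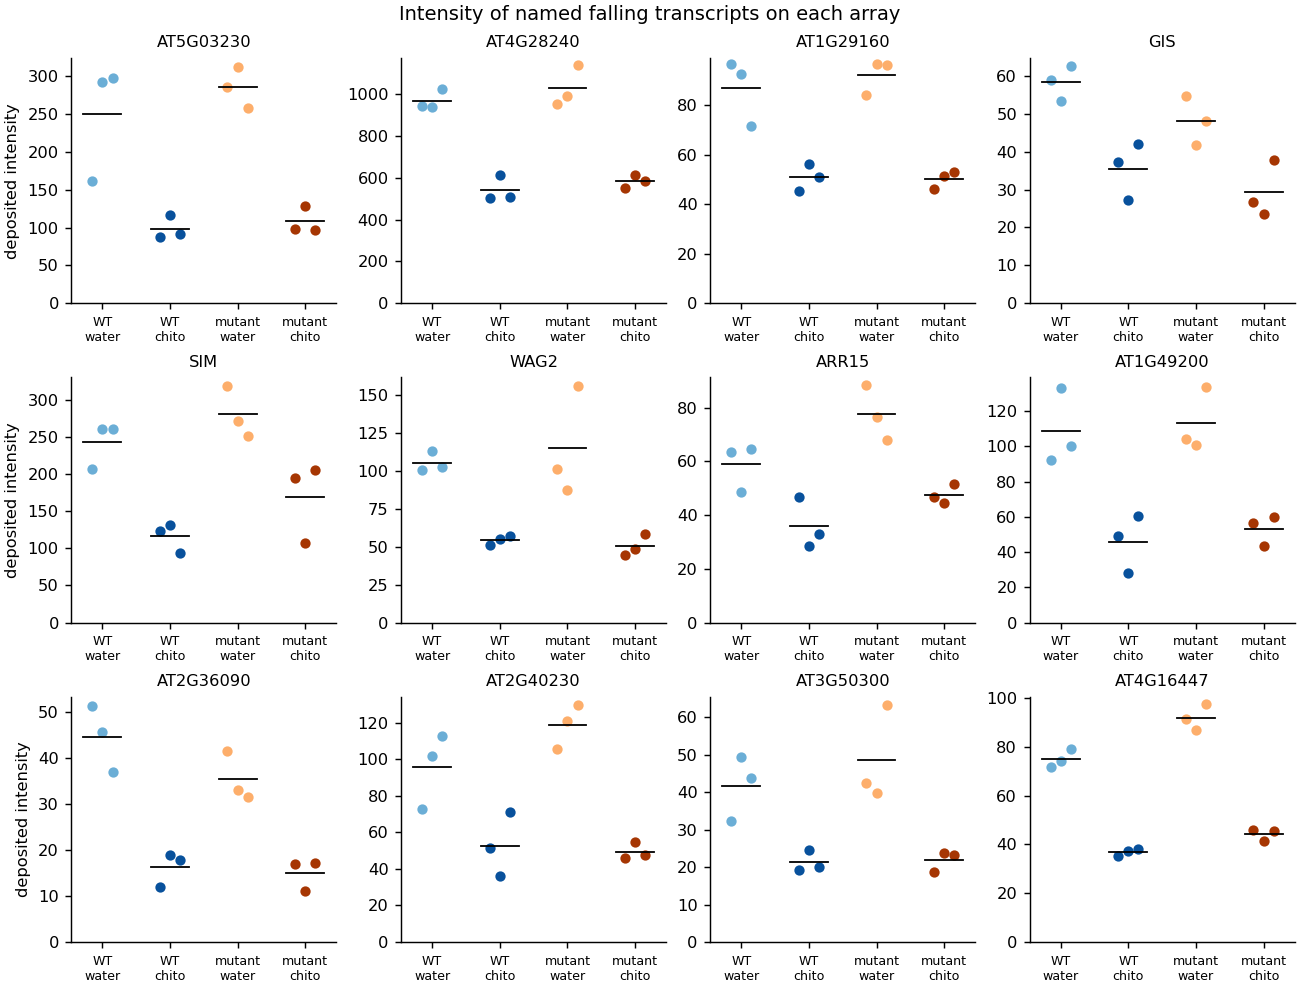
Deposited intensity (linear axis from 0) of 12 named members on each array, with 3 arrays per group as points and their mean as a bar; chito stands for chitooctaose. In every panel the chitooctaose points of a genotype lie below its water points, from AT4G28240 near 1000 in water to AT2G36090 near 40.

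A group of 5 named members belongs to families of ubiquitin ligases or their substrate adaptors. AT1G49200 and AT5G17600 encode RING finger proteins of the ATL type, AT3G13672 (SINA2) a relative of the SINA ligases, and AT2G36090 and AT3G23880 F-box family proteins. AT1G49200 read 92.4, 133 and 100 in wild-type water and 49.2, 28 and 60.2 in chitooctaose, and in the mutant 104, 101 and 134 against 56.5, 43.6 and 59.7. Its changes were -1.30 ± 0.37 and -1.09 ± 0.19 (SE, n = 3 per group), the spread in wild type coming from array 2 at 28. AT2G36090 was close to the floor after chitooctaose, at 12.02, 18.9 and 17.9 in wild type and 17.02, 10.97 and 17.2 in the mutant, from water values between 31.6 and 51.3. With 1 array per genotype below 16, its changes of -1.33 and -1.07 are limited by the floor. AT5G17600 (-0.77 and -0.74), AT3G13672 (-0.86 and -0.83) and AT3G23880 (-0.92 and -0.80) had values close to each other in the 2 genotypes.

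The enzymes among them included both a pair of BAHD acyltransferases, which transfer acyl groups from coenzyme A to secondary metabolites, and single members of other families. AT2G40230 read 72.9, 102 and 113 in wild-type water and 51.1, 36.0 and 71.1 in chitooctaose, a wide spread in which the groups nearly met. In the mutant the same gene went from 106, 121 and 129 to 46.0, 54.7 and 47.6, a change of -1.26 ± 0.12 against -0.89 ± 0.34 in wild type (SE, n = 3 per group). AT3G50300 was dim, at 32.3, 49.3 and 43.7 in wild-type water and 19.1, 24.6 and 20.1 in chitooctaose, and at 42.6, 39.9 and 63.3 against 18.7, 23.8 and 23.2 in the mutant. AT5G44680, a DNA glycosylase family gene, was the tightest of these, with 245, 242 and 247 in wild-type water and 134, 129 and 128 in chitooctaose. Its changes were -0.91 ± 0.02 and -0.92 ± 0.08. AT3G20015, of the aspartyl protease family, changed by -0.82 and -0.74.

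AT5G03230, of the S40 family (DUF584) whose founding member was described in senescing barley leaves, had the lowest mean of both responses among named members. It read 162, 292 and 298 in wild-type water against 87.9, 116 and 91.3 in chitooctaose, and 285, 313 and 258 in mutant water against 98.6, 129 and 97.2. Apart from array 1 of wild-type water, the water values of AT5G03230 lay between 258 and 313, and all 6 chitooctaose values at or below 129. AT5G61570 is a protein kinase family gene with 1 protein-coding gene between it and the AP2/ERF gene AT5G61590. In wild type AT5G61570 went from 45.7, 45.2 and 41.9 to 22, 18.3 and 18.1. In the mutant it went from 44.7, 44.3 and 43.8 to 27.3, 16.4 and 28.5. No other pair among the named members and the 2 genes left out was as close in gene order; ARR15 and AT1G74940 came next, with 5 protein-coding genes between them. AT4G25780, of the CAP family that includes PR-1, had -0.87 and -0.81, and AT1G04770, known from sulfur deficiency, had -0.95 and -0.71.

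The other 16 named members are given by value. AT1G69760 went from 447, 400 and 289 to 112, 168 and 129 in wild type and from 328, 315 and 224 to 154, 180 and 153 in the mutant, changes of -1.47 ± 0.26 and -0.82 ± 0.19 (SE, n = 3 per group). AT2G21560 likewise was lower by more in wild type, at 132, 143 and 116 against 53.6, 46.0 and 51.9, than in the mutant, at 113, 128 and 111 against 78.1, 69.3 and 65.5. AT4G16447 was nearly even, with 71.7, 74.2 and 79.3 against 35.1, 37.4 and 38.0 in wild type and 91.5, 87.0 and 97.4 against 46.0, 41.2 and 45.7 in the mutant. AT1G64405 changed by -0.93 and -1.32, the opposite order, but with 1 chitooctaose array of each genotype below the floor. In wild type and mutant, AT1G78170 changed by -1.18 and -0.92, AT3G25870 by -1.14 and -0.90, AT2G07140 by -1.11 and -0.89, and AT1G26920 by -1.10 and -0.86. AT2G07140 is measured by a probe set whose suffix marks possible cross-hybridization. AT5G25280 changed by -0.98 and -0.87, AT5G67390 by -0.96 and -0.91, AT5G01740 by -0.85 and -0.91, and AT5G52550 by -0.84 and -0.72. AT1G74940 changed by -0.83 and -0.77, AT3G27880 by -0.77 and -0.78, and AT2G38820 by -0.76 and -0.84, while AT4G35720 had -0.81 and -0.85. Over all 36 named members the median change was -0.93 in wild type and -0.86 in the mutant, and their median water level was 109.

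The lowest changes of the whole group belonged mostly to probe sets without a listed gene, which made up 9 of the 10 lowest by the mean of both responses. Their median changes were -0.999 in wild type and -1.03 in the mutant. Probe set 266150_s_at, whose suffix marks probes shared between transcripts, went from 104, 142 and 135 to 31.8, 41.8 and 33.8 in wild type and from 145, 104 and 126 to 41.1, 34.0 and 36.0 in the mutant. Probe set 247696_at, far brighter, went from 549, 665 and 698 to 185, 144 and 199 in wild type and from 455, 628 and 609 to 211, 184 and 160 in the mutant. In both probe sets every chitooctaose array was far below every water array of its genotype. Probe set 255437_at had water arrays of 136, 79.8 and 83.9 in wild type and 66.9, 74.7 and 56.4 in the mutant. Its chitooctaose arrays read 25.5, 26.9 and 34.4 in wild type and 23.0, 23.5 and 25.4 in the mutant. Probe set 260783_at went from 150.1, 130 and 124 to 51.7, 50.7 and 53.3 in wild type and from 119, 117 and 158 to 40.1, 41.1 and 61.2 in the mutant. Its 6 chitooctaose arrays were all below its 6 water arrays, with changes of -1.37 and -1.48. Probe set 257460_at went from 53.1, 59.8 and 68.2 to 10.95, 22.6 and 20.8 in wild type and from 61.0, 45.6 and 54.6 to 18.9, 24.6 and 20.2 in the mutant. With 1 wild-type array below the floor, its changes were -1.62 and -1.34. Probe set 252534_at went from 62.7, 79.2 and 59.2 to 13.5, 17.8 and 11.8 in wild type and from 44.0, 57.0 and 39.5 to 25.8, 19.5 and 22.6 in the mutant. It had the lowest change in wild type, -2.004, with 2 of 3 chitooctaose arrays below the floor, and -1.04 in the mutant. The seventh of the 10, 247406_at, is given by array with the genotype difference.

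In 10 members the wild-type arrays overlapped, and these had one shared pattern, noticed after their values were seen. In all 10, array 1 was the highest of the wild-type water arrays and array 2 the highest of the wild-type chitooctaose arrays. None of the 10 had a listed gene. Probe set 266385_at read 1329, 178 and 358 in wild-type water and 103, 697 and 61.3 in chitooctaose, while in the mutant it went from 244, 221 and 404 to 32.6, 43.9 and 55.4. Probe set 266070_at read 587, 107 and 268 in wild-type water and 48.8, 458 and 36.4 in chitooctaose, and in the mutant 76.6, 78.2 and 131 against 27.6, 57.3 and 32.2. Probe set 256766_at, the brightest of the 10, read 1074, 500.4 and 574 in wild-type water and 243, 679 and 203 in chitooctaose, and in the mutant 403, 689 and 272 against 209.6, 331 and 142. The mutant arrays overlapped in 256766_at and 251625_at and in no other member. The other 7 were 265837_at, 260116_at, 251625_at, 263852_at, 263539_at, 250445_at and 248169_at. The within-group standard deviation of these 10 lay between 0.43 and 1.22 on the log2 scale, against a maximum of 0.36 and a median of 0.20 in the other 73 members. This contrast follows largely from the split, because arrays that overlap despite a change of -0.7 or below must spread widely. Without both of these wild-type arrays, the wild-type changes of the 10 lay between -2.01 and -0.97, against -1.46 to -0.73 with them. All 3 mutant chitooctaose arrays of 263539_at were below 16, so its mutant change of -1.07 is only a bound. The same 2 arrays were the highest of their groups in 14 of 83 members, or 16.9%, and in 25.1% of all probe sets at or above 40. Which transcripts the 10 probe sets measure is not given in the annotation used here.

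**Figure D3:**
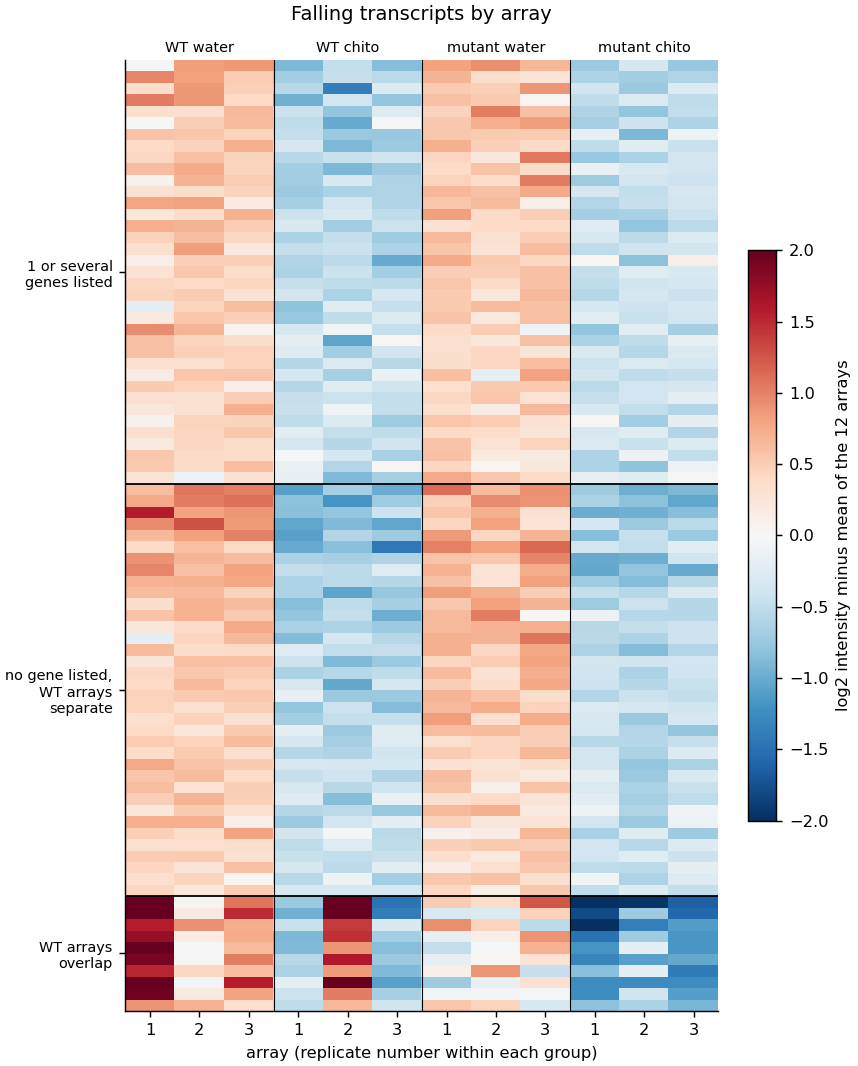
Log2 intensity of the 83 members (rows) on the 12 arrays (columns), each minus that member's mean over all arrays, with the floor of 16 applied; colours run from -2 (blue) to 2 (red). Water columns are red and chitooctaose columns blue in the upper 2 blocks, whereas in the lowest block, the 10 members whose wild-type arrays overlap, array 1 of wild-type water and array 2 of wild-type chitooctaose are both red.

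For each array, the median deviation of the 83 members from their group means lay between -0.05 and 0.05 on the log2 scale, and that of all probe sets at or above 40 between -0.03 and 0.05. Over the 73 members with separate wild-type arrays it ran from -0.06 to 0.07. Over the 36 named members it ran from -0.05, in array 1 of wild-type water, to 0.10, in array 2 of wild-type water. The median member had a within-group standard deviation of 0.21, against 0.15 for all probe sets at that level.

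Among members the 2 genotypes showed changes of like size. This follows in part from the rule, which asked for a change of -0.7 or below in both. The mutant change minus the wild-type change had a median of 0.03 over the 83 members; it was below 0.25 in size in 58 and above 0.5 in 5. These 5 were 266385_at (-1.27), 265837_at (-0.98), 252534_at (0.96), AT1G69760 (0.65) and AT2G21560 (0.64), where a negative value means a lower change in the mutant. The first 2 are among the probe sets with overlapping wild-type arrays, and 252534_at touched the floor in wild type. As both responses were used to choose the members, their difference was not tested and nothing is read from these counts.

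The average difference between the genotypes over both treatments is independent of the responses the rule used and was tested with limma over all 18680 probe sets. The rule's level condition did use the water arrays, and 5 members reached 40 in the mean of water arrays only through 1 genotype: AT2G36090, 263539_at and 250445_at through wild type, and AT1G64405 and 258570_at through the mutant. It asked whether the falling transcripts stood at another level in the erf5/6 mutant. None of the 83 members was called at an adjusted p under 0.05, and 7 probe sets, or 0.0375%, were called over the whole array. At an unadjusted p under 0.05, limma counted 18 of the 83 members, or 21.7%, and 1511 of all tested probe sets, or 8.09%. The lowest p among members belonged to 247406_at, which was higher in the mutant by 0.63 ± 0.11 (SE, n = 6 arrays per genotype; adjusted p = 0.147 from limma). Its intensities were 237, 275 and 237 in wild-type water against 366, 316 and 402 in mutant water, and 89.6, 101 and 67.1 against 140, 129 and 156 after chitooctaose. All 3 mutant arrays were above all 3 wild-type arrays in each treatment, and the member was called under 3 of 21 alternatives (limma adjusted p from 0.0212 to 0.447 over the alternatives). AT4G16447 was higher in the mutant by 0.28 ± 0.06 (adjusted p = 0.267 from limma) and ARR15 by 0.41 ± 0.12 (adjusted p = 0.442 from limma). For ARR15 all mutant water arrays, from 68.1 to 88.2, were above the wild-type ones, from 48.5 to 64.6. Probe set 247013_at differed by -0.29 in the mutant, with 485, 481 and 506 against 669, 593 and 574 in water (adjusted p = 0.292 from limma). Over all members the median difference was 0.01, with 40 of 83 lower in the mutant, among them all 10 with overlapping wild-type arrays. The 10 members with overlapping wild-type arrays were set apart by high wild-type arrays, so their differences of -1.42 to -0.54 in the mutant are a description from which nothing is read. They supply 6 of the 18, and 263539_at and 250445_at are among them. Leaving out these 10 and the members that reached 40 through 1 genotype only leaves 70 members, of which 12 had an unadjusted p under 0.05 and none was called. Of these 12, 255437_at, 264091_at and 247013_at were lower in the mutant (-0.40, -0.36 and -0.29) and the others were higher. Over all tested probe sets, those with a water mean below 40 included, the share at that p was 8.09%. The share among probe sets of like level was not taken, so nothing is read from the 12.

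**Figure D4:**
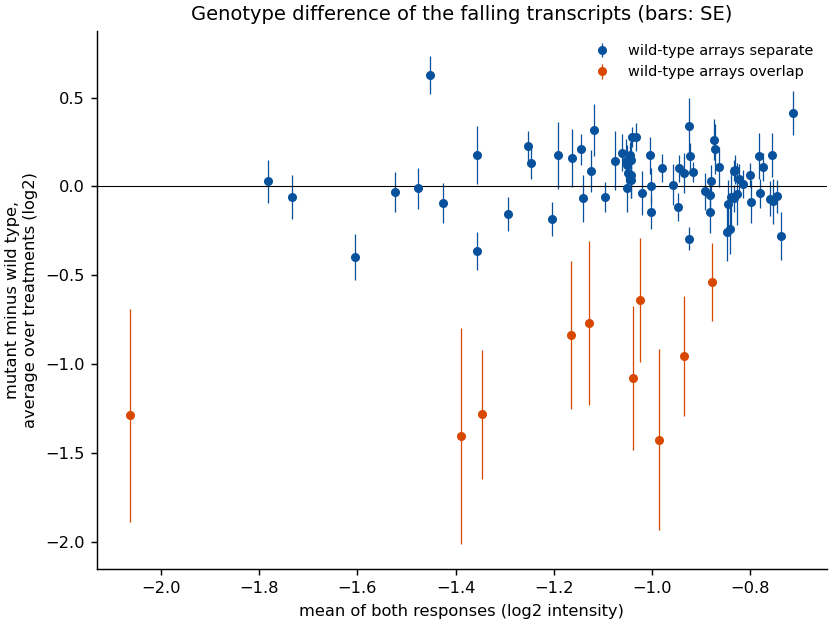
Average difference between mutant and wild type over both treatments (vertical axis, log2, bars are SE from limma) against the mean of both responses (horizontal axis, log2) for the 83 members. The 73 members with separate wild-type arrays scatter around 0, with 247406_at highest at 0.63, and the 10 with overlapping wild-type arrays, set apart by high wild-type arrays, lie below 0 with wide bars.

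To see how relatives of the falling genes behaved, 11 lists of growth, hormone and family genes were examined, written with earlier results of these data known. A probe set assigned to a single gene existed for 50 of their 145 entries, and 44 were tested. Limma called 8 of the 44 lower and 3 higher in wild type, where 4.08% and 6.06% of all probe sets were called lower and higher. In the mutant it called 10 lower and 3 higher, against 2.66% and 5.95%. The median change of the 44 was -0.10 in wild type and -0.23 in the mutant on the quantile-normalized scale, against -0.07 and -0.08 over all tested probe sets. The 44 include 6 members chosen by the rule for being lower, and the median of the other 38 was -0.06 in wild type and -0.21 in the mutant. Of the genes called lower, those 6 made up all but 2 in wild type and all but 4 in the mutant.

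The S40 family changed in both directions. Of its 11 tested genes, 2 were called lower and 2 higher in wild type, and 2 lower and 1 higher in the mutant. Beside AT5G03230, AT2G34340 fell, from a mean intensity of 106 to 64.8 in wild type and from 98.0 to 66.7 in the mutant (-0.68 and -0.65). AT2G28400 rose, from 71.2 to 174 in wild type and from 69.3 to 171 in the mutant, by 1.31 ± 0.14 and 1.22 ± 0.14 (SE; adjusted p = 4.89e-05 and 8.46e-05 from limma). AT3G45210 had changes of -0.89 and -0.71 that were not called, while AT5G45630 was called higher in wild type, where all 3 water arrays were below the floor (mean 11.1) and the chitooctaose arrays had a mean of 24.4. The call of AT5G45630 was lost when array 1 of wild-type water and array 2 of wild-type chitooctaose were both left out. The call of AT2G34340 was lost in wild type without array 1 or 2 of water or array 1 or 3 of chitooctaose, and in the mutant without array 1 or 2 of water or array 2 of chitooctaose. Both calls of AT2G34340 were lost when probe sets that never exceeded the floor were kept, and the mutant call with no further normalization. The median of the list, AT5G03230 included, was -0.08 in wild type and -0.23 in the mutant.

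The listed ATL-type RING finger genes also split. The list did not hold the member AT5G17600, also of the ATL type and lower in wild type and mutant (-0.77 and -0.74 on the deposited scale). AT1G49200 was lower, whereas AT1G20823 rose from a mean of 36.5 to 300.2 in wild type and from 44.9 to 307 in the mutant, by 3.01 ± 0.23 and 2.68 ± 0.23 (SE). The mutant call of AT1G49200 was lost without mutant water array 3 or mutant chitooctaose array 2, and when probe sets that never exceeded the floor were kept. The 3 others tested, AT1G49210, AT1G49220 and AT1G76410, were not called. Their changes were -0.07, -0.03 and -0.35 in wild type, and 0.17, -0.02 and 0.12 in the mutant. The first 2 of these neighbours in name of AT1G49200 were near the floor, with water means of 15.5 and 13.0.

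Of 11 tested BAHD acyltransferase genes, 3 were called lower in each genotype and 1 higher in the mutant. Beside the members AT2G40230 and AT3G50300, AT5G67150 fell by 0.47 in wild type and 0.51 in the mutant on the log2 scale (adjusted p = 0.0119 and 0.00778 from limma). Its wild-type call was lost when array 1 of wild-type water and array 2 of wild-type chitooctaose were both left out, and with the wild-type arrays fitted alone. AT5G42830 rose in the mutant by 1.07 and had 0.87 in wild type (adjusted p = 0.0206 and 0.0527 from limma); the mutant call was lost without any 1 water array of the mutant, without chitooctaose array 1 or 3, and when probe sets that never exceeded the floor were kept. HCT, of lignin precursor synthesis, had -0.18 and -0.29 and was not called. AT5G07870 had -0.42 in wild type and 0.04 in the mutant and was not called. The wild-type call of AT2G40230 was lost under 13 of 22 alternatives, including the loss of any 1 mutant array, array 2 or 3 of wild-type water, or array 1 or 2 of wild-type chitooctaose.

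Hormone and growth lists held few measured genes, and genes without a probe set assigned to a single gene were not read. Whether members with no listed gene measure any of these cannot be told from the annotation used. ARR16, the other tested type-A response regulator, had -0.30 and -0.24 and was not called. The wild-type call of ARR15 was lost under 7 of 22 alternatives, among them leaving out array 1 or 3 of wild-type water or array 2 or 3 of wild-type chitooctaose. Its mutant call was lost without mutant water array 1 or mutant chitooctaose array 1 or 2. Beside WAG2, the tested gene of its list was PID2, near the floor, with 0.03 and -0.23. Of 25 listed early auxin response genes, 9 had a probe set assigned to a single gene and 7 were tested. Among these 7, limma called none in wild type, with 0 at an unadjusted p under 0.05. In the mutant 3 of the 7 had such a p, all lower: IAA29 (-0.47), LBD16 (-0.47) and GH3.17 (-0.42), an auxin-conjugating enzyme gene. Only GH3.17 was called. Its call was lost without mutant water array 2 or 3 or chitooctaose array 1. It was also lost with no further normalization of the deposited values and with the mutant arrays fitted alone. Of 13 listed gibberellin and brassinosteroid genes, 2 were tested. GID1A, a gibberellin receptor gene, was called lower in the mutant (-0.36), and GID1B was not called. In wild type GID1A had -0.22 and was not called (adjusted p = 0.179 from limma), with 136 to 155 in chitooctaose against 167 to 170 in water. The mutant call of GID1A was lost without mutant water array 1 or 3, mutant chitooctaose array 2 or 3, or wild-type water array 2 or 3. It was also lost with no further normalization, with median scaling, and with the mutant arrays fitted alone. GI of the clock, the expansin genes EXPA4 and EXPA8 and the homeodomain factor gene HAT2 were not called. Their changes were 0.08, 0.17, 0.22 and -0.22 in wild type, and -0.22, -0.005, -0.25 and -0.45 in the mutant. HAT2 in the mutant had an unadjusted p of 0.0116 from limma (adjusted p = 0.102). For the listed abscisic acid receptors the annotation used held no probe set assigned to a single gene.

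**Figure D5:**
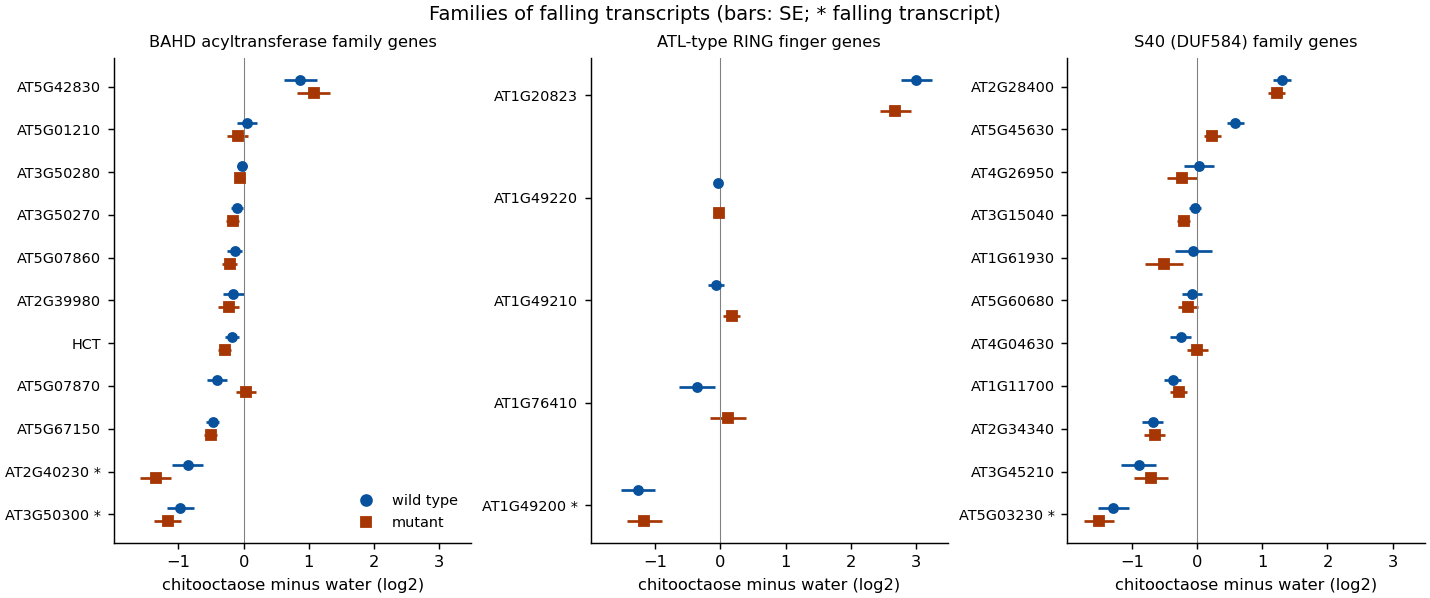
Change from water to chitooctaose (log2 of quantile-normalized intensity, bars are SE from limma) for tested genes of the BAHD acyltransferase, ATL-type RING finger and S40 families, in wild type (circles) and mutant (squares); asterisks mark falling transcripts. Each family holds genes on both sides of 0, with AT1G20823 (3.01 in wild type) and AT2G28400 (1.31) opposite to AT1G49200 and AT5G03230. The falling transcript AT5G17600, also of the ATL type, was not on the list and is not shown.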

How the data were processed

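Each array's column of deposited intensity is linear; for the authors' probe summary, background correction and scaling, nothing is given in the sources used here. Members and levels were taken from these values as deposited, floored at 16 and put on the log2 scale. For tests, intensities were quantile normalized first and then floored. A model with 4 group means was fitted to all 12 arrays with limma 3.58.1 in R 4.3.3, using moderated variances and two-sided p-values adjusted by Benjamini-Hochberg over 18680 probe sets. The 4066 probe sets that never exceeded the floor were not tested. On simulated data for the genotype difference in 18680 probe sets, the fit found 97% of changes of 2-fold and 100% of changes of 4-fold, with 10 false calls. The simulated noise was normal and independent between arrays, and changes were planted only in brighter probe sets. These shares therefore do not cover dim members or differences below 2-fold. The number of arrays limits the precision, and p-values set a difference of group means against the moderated spread between these arrays. Members and lists were chosen with earlier results of these data known. Gene names came from the platform annotation, updated through RefSeq (assembly TAIR10.1). A single gene was listed for 13513 probe sets, several for 503 and none for 8730; all 36 members with 1 gene matched RefSeq. Every member with 1 gene is named. Array values were due for the 10 members with the lowest mean response, the 5 brightest and any called by genotype; others with array values were chosen for their roles after values were seen. Listed genes with several probe sets were read from the brightest. Promoter motifs were planned and not analysed here.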

Additional observations from a re-analysis of the deposited data

How the results depend on the processing

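The number of probe sets meeting the rule was 83, and 74 to 87 when single arrays were left out. It was 31 with 32 added to the intensities in place of the floor, 21 with a threshold of -1 and 66 with a floor of 32. Probe sets with 1 gene among these numbered 9, 4 and 27, against 36 in the main setting. With that offset the members' median change was -0.74 in wild type and -0.69 in the mutant, against -1.01 to -0.95 and -0.97 to -0.92 without single arrays; dim members are the ones an offset shrinks. Quantile normalization gave 95 probe sets, 82 of them members, and leaving out both wild-type arrays that stood apart gave 85, 78 of them members. For the genotype difference, 1 member (247406_at) was called with the offset, without the dimmest 40% of probe sets and with array weights. Over the whole array 17 probe sets were called with the offset, 11 without the dimmest 40%, with an intensity trend and with array weights, and 4 to 12 without single arrays, against 7, the 4 without array 3 of wild-type water and the 12 without array 2 of wild-type chitooctaose. The listed genes called lower in wild type were 5 rather than 8 when probe sets that never exceeded the floor were kept, and 6 to 8 without single arrays. In the mutant they were 6 to 10 without single arrays, the 6 without array 2 of mutant chitooctaose. Listed genes called higher were 3 to 4 in wild type and 2 to 3 in the mutant without single arrays. None of these results changed direction. Why they moved was not tested. With the replicate number as a block, the genotype difference was called in 0 members and 8 probe sets, and the listed genes called lower numbered 8 in wild type and 9 in the mutant, with the call of GID1A in the mutant lost and no other listed call. Arrays of the same number in different groups deviated with correlations between -0.32 and 0.48 over probe sets at or above 40, so the numbers were not taken to pair the samples.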
